A study of Mus musculus with 16 samples.

Results

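The 62 genes described here encode translation initiation and elongation factors and the enzymes that modify them. They were the genes whose mouse symbol begins with Eif and a digit or with Eef1 or Eef2 and whose most abundant interval reached a mean of at least 1 CPM (reads scaled to library size, given by the authors as a mean over the libraries), out of 21177 genes in the table. The symbol rule matched 68 genes. The 6 below the minimum were Eef1a2, Eef1akmt3, Eif2ak3, Eif2ak4, Eif3j2 and Eif4e1b. At the edge of the minimum, Eif3e had a mean of 1.10 CPM and Eif2b4 1.27 CPM, just inside, and Eif2ak4 had 0.907 CPM, just outside. There were 13 members in the Eif2 group, 13 in Eif3, 15 in Eif4, 11 in Eef and 10 others, which are Eif1, Eif5 and Eif6 genes.

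Leukemia cells from bone marrow of C57BL/6 mice were studied in 2 genotypes, YBX1-/- and WT. YBX1 is an RNA-binding protein of the Y-box family. All cells had been grown for 24 h in 50 µM 4-thiouridine (4sU), a uridine analog that is read as C in place of T after chemical treatment (SLAM-seq), and were then chased in medium with 10 mM uridine for 0, 0.5, 1, 3, 6, 12, 18 or 24 h. There was 1 library for each genotype and time, 16 in all, so no time point had a replicate. The p-values of slopes and genotype differences measure the scatter of the time points about a fitted course. Those of gene pairs measure how steadily 2 genes differ over the 16 libraries. The leukemia model, the sex of the animals and the number of animals behind a library are not given in the sources used here.

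Each value below is a T-to-C rate in percent, the authors' measure of how much of a transcript was labelled in 1 library. The sources used here do not say whether reads or T positions were its denominator. Decay of labelled RNA and dilution by new RNA both lower the rate in a chase and cannot be told apart, so loss and half-life refer to the label. All 62 members were read in an interval that overlaps a 3′ UTR of the same gene, and 13 of these intervals also overlap coding sequence of some transcript. The depth per library was not in the table, and a rate of exactly 0 can mean no reads or no labelled reads. Genes listed above 0 in 12 or more of the 16 libraries were tested. These were 55 of the 62 members, among 7411 genes in all. The members not tested were Eif2ak2, Eif2b3, Eif2b4, Eif2d, Eif2s3y, Eif3g and Eif4ebp3.

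Initiation begins when eIF2 brings the initiator tRNA to the small ribosomal subunit, on which eIF3 is the scaffold, while the eIF4F factors bind the cap and unwind the leader. eIF2B recharges eIF2 with GTP, and kinases that phosphorylate eIF2 block that step. During elongation, eEF1A brings each aminoacyl-tRNA to the ribosome, the eEF1B subunits recharge eEF1A, and eEF2 moves the ribosome on. Many of these mRNAs, like those of ribosomal proteins, begin with a tract of pyrimidines (5′ TOP mRNAs) through which mTOR and LARP1 control their translation.

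To show that feature, the 30 bases from 5 before to 25 after the RefSeq transcript start (build GRCm38.p6) are given for the listed 5′ TOP members that the RefSeq table holds, for both copies of the eIF2 gamma gene, and for Eif4a1, whose label was lost at about the pace of all genes. Capitals mark the first run of at least 6 C or T bases that begins with C, on the transcribed strand.
Eef1a1: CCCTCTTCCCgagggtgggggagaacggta
Eef1b2: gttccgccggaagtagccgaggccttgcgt
Eef2: cgggcgttgacgtcagcggtCTCTTCCgcc
Eif3f: gCTCTCTCTCTTTCTCggcaagatggcttc
Eif4b: tcggacgccgcgccaCCCCCTCgcgctgct
Eif2s3x: ttttCCTTTTCTCTCCgagcaagatggctg
Eif2s3y: cagccaCTTCCTTCTTTCgtgagcaagatg
Eif4a1: gtcacgtcgagttgcagagcgccggcaggc
The windows are Eef1a1 at chr9:78481700-78481729, minus strand; Eef1b2 at chr1:63176826-63176855, plus strand; Eef2 at chr10:81176626-81176655, plus strand. The others are Eif3f at chr7:108934410-108934439, plus strand; Eif4b at chr15:102073768-102073797, plus strand; Eif2s3x at chrX:94212627-94212656, minus strand. Eif2s3y lies at chrY:1010590-1010619, plus strand, and Eif4a1 at chr11:69672399-69672428, minus strand. RefSeq windows were found for 49 of the 62 members. The run was present in 14 of these 49 (28.6%), in 4 of 5 listed 5′ TOP members and in 10 of 44 other members, beside 22.9% of all 27025 genes with a window. On the opposite strand the run was in 13 of the 49 members and in 28.2% of all genes. A run in this window is a description of the letters, and the start used in these cells was not measured.

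As whole-series facts, 14 of 15 myeloid and progenitor markers had a mean of at least 1 CPM, with S100a8 the highest at 783 CPM, and no T lymphoid marker out of 5 did, with Cd8a the highest of these at 0.380 CPM. The B lymphoid markers summed to 7.49 CPM, nearly all from Cd79b at 7.39 CPM. The erythroid markers summed to 5.63 CPM, the megakaryocyte markers to 41.6 CPM and the stroma and endothelium markers to 4.90 CPM. Nearly all of the last 2 sums came from 1 gene each, Pf4 at 39.8 CPM and Pecam1 at 4.6 CPM. CPM is given only as a mean over libraries, so markers could not be compared between genotypes. The Ybx1 transcript itself had rates of 72, 51.7, 43.4, 48.9, 31.1, 20.8, 4.67 and 3.08% in YBX1-/- libraries, against 55.2, 61.4, 56.8, 50.1, 38.9, 15.5, 7.3 and 5.08% in WT libraries, in the order of the chase times. A rate above 0 in every YBX1-/- library shows that reads of the Ybx1 interval were present there, and it checks neither the level of the transcript nor the protein. The YBX1-/- library at 0 h stood apart from the other early libraries: across the genes tested, the correlation of its log2 rates with those of the remaining early libraries averaged 0.279, against 0.428 to 0.551 for the other 5.

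Labelled RNA of the factors fell over the chase in both genotypes. In YBX1-/- cells, 53 of 55 tested members fell (adjusted p under 0.05, limma with Benjamini-Hochberg adjustment over all genes), beside 91.5% of all 7411 genes, and in WT cells 55 of 55 members fell, beside 95.2% of all genes. The median half-life of the label over members was 4.23 h in YBX1-/- cells and 3.8 h in WT cells, and over all genes tested it was 4.06 h in YBX1-/- cells and 3.72 h in WT cells. These straight lines include the 24 h rates, of which more were 0 in WT cells. At 24 h, 6 of 55 members were at 0 in YBX1-/- cells and 16 in WT cells. Of all genes tested, 14.2% were at 0 in YBX1-/- cells and 32.5% in WT cells. With an exponential and a constant floor fitted to the median rates, it was 3.41 h in YBX1-/- cells and 3.34 h in WT cells for members, and 2.66 h in YBX1-/- cells and 2.76 h in WT cells for all genes. The 2 members that did not pass in YBX1-/- cells were Eif2ak1 (slope -0.14 ± 0.07 log2 per h, SE, adjusted p = 0.0683) and Eif3e (0.099 ± 0.15 log2 per h, adjusted p = 0.522).

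The groups did not lose label alike. A straight line over 24 h is pulled by the low late rates, so the label retained at 6 h is also given, as the rate at 6 h in percent of the mean rate at 0, 0.5 and 1 h of the same genotype. Eif3 members retained a median of 43.4% in YBX1-/- cells and 47.9% in WT cells (12 genes), the highest of the 5 groups in both. Eef members retained 32.6% in YBX1-/- cells and 36.9% in WT cells (11 genes). The 55 tested members together retained a median of 21.1% in YBX1-/- cells and 29.4% in WT cells. By this measure YBX1-/- cells kept less label, whereas their median straight-line half-life was the longer. Over all genes tested the median was 14.7% in YBX1-/- cells and 22.8% in WT cells. Members of the other groups lay nearer to that: Eif2 retained 18.6% in YBX1-/- cells and 32.2% in WT cells (8 genes). Eif4 retained 14.6% in YBX1-/- cells and 22.5% in WT cells (14 genes). The remaining Eif genes retained 12.9% in YBX1-/- cells and 19.3% in WT cells (10 genes). With the YBX1-/- 0 h library left out of the base, the YBX1-/- medians were 50.5% for Eif3, 24.3% for Eef, 18.3% for Eif2, 14.6% for Eif4, 14% for the others and 14.8% for all genes, and the order of the groups was the same. With 0 h alone as the base, Eef (45.0%) passed Eif3 (36.8%) in YBX1-/- cells. With the coverage-weighted mean over a gene's intervals, the remaining Eif genes were at 22.8% in YBX1-/- cells.

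In the 16 libraries, the median Eif3 rate was 32.8, 33.2, 27.6, 23.8, 14.3, 3.46, 3.03 and 1.21% in YBX1-/- cells at 0, 0.5, 1, 3, 6, 12, 18 and 24 h, against 40.7, 48.2, 45.6, 31.1, 20.3, 4.95, 2.18 and 1.08% in WT cells. The median Eif4 rate was 35.4, 36.7, 30.8, 20.2, 5.31, 1.53, 1.44 and 0.691% in YBX1-/- cells, against 43.9, 49.7, 47, 21.6, 10.7, 2.83, 1.15 and 0.814% in WT cells. Eif3 thus began below Eif4 in all 6 libraries of 0 to 1 h and was above it in every later library of both genotypes. The median Eef rate was 32.3, 37.9, 32, 23.4, 8.62, 1.13, 1.68 and 0.718% in YBX1-/- cells, against 44.3, 53.3, 45.8, 31.8, 15, 3.82, 1.88 and 0.478% in WT cells, and the median Eif2 rate was 28.3, 33.4, 29.8, 23.3, 4.42, 1.89, 1.19 and 0.888% in YBX1-/- cells, against 38.6, 45.4, 42.8, 24.9, 12.8, 2.08, 1.52 and 1.1% in WT cells. Eef stood between Eif3 and Eif4 at 6 h in both genotypes, and below Eif4 at 12 h in YBX1-/- cells and at 24 h in WT cells.

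**Figure D1:**
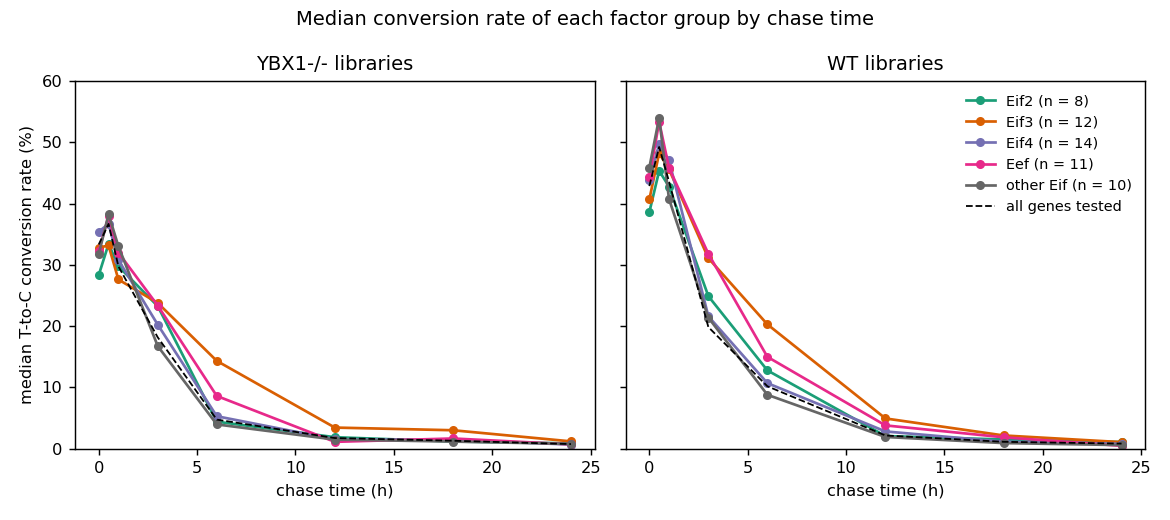
Median T-to-C rate in percent (y axis) of the tested members of each factor group by chase time in hours (x axis), 1 library per point, with YBX1-/- libraries on the left and WT libraries on the right; the dashed line is the median over all 7411 genes tested. The Eif3 line is the highest at 6 h in both panels, at 14.3% in YBX1-/- and 20.3% in WT, while the dashed line is at 4.76% in YBX1-/- and 10.2% in WT.

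The members of a group were spread widely. Among Eif3 members the label retained at 6 h ran over 7.15 to 134% in YBX1-/- cells and 17.3 to 65.3% in WT cells. Eef members ran over 4.45 to 73.1% in YBX1-/- cells and 14.1 to 83.5% in WT cells. Within Eef, the 6 genes named for eEF1 and eEF2 themselves, Eef1e1 included, had a median of 60.6% in YBX1-/- cells and 54.4% in WT cells, while the 5 genes of enzymes that modify these factors had 15.7% in YBX1-/- cells and 19.5% in WT cells. By label retained at 6 h, the order of the 55 members was alike in the 2 genotypes, with a Spearman rho of 0.743 (Pearson r 0.626) across members, beside a rho of 0.568 (r 0.471) across all 7411 genes. The slopes over 24 h were less alike, with a rho of 0.478 (r 0.371) across members. Genes are not independent replicates, and the libraries of a genotype are shared by all of them. Of the 15 members that retained most label in each genotype, 11 were the same: Eef1a1, Eef1b2, Eef1g, Eef2, Eif3c, Eif3e, Eif3f, Eif3h, Eif3i, Eif3k and Eif5a.

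**Figure D2:**
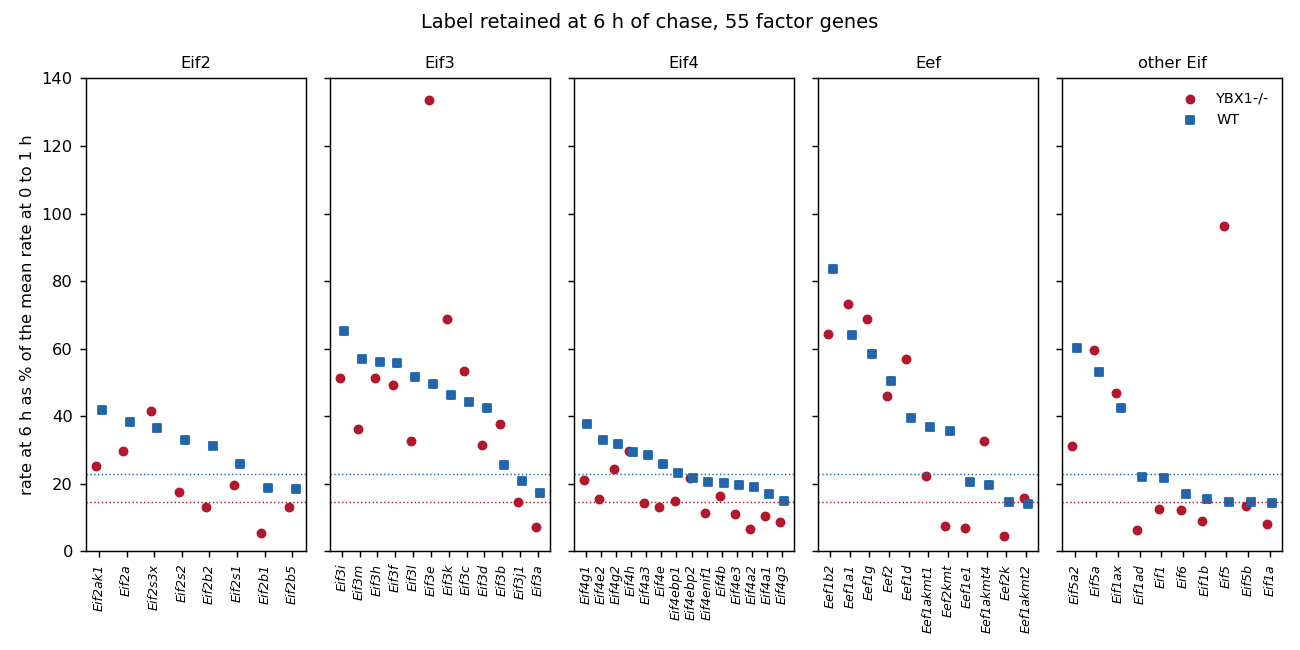
Label retained at 6 h, as the rate at 6 h in percent of the mean rate at 0 to 1 h (y axis), for each of the 55 tested members (x axis, by group and ordered by the WT value), with YBX1-/- as circles and WT as squares; dotted lines are the medians over all genes tested. The elongation factor genes other than Eef1e1 and most Eif3 subunits lie above the lines, Eif4 members lie near them, and the YBX1-/- points of Eif3e (134%) and Eif5 (96.4%) stand far above the rest of their groups.

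The 9 members listed as classical 5′ TOP mRNAs (Eef1a1, Eef1b2, Eef1d, Eef1g, Eef2, Eif3e, Eif3f, Eif3h and Eif4b) retained a median of 56.8% in YBX1-/- cells and 55.8% in WT cells at 6 h. The 46 other tested members retained 15.6% in YBX1-/- cells and 25.6% in WT cells. At 12 h the TOP members retained 18.5% in YBX1-/- cells and 25.6% in WT cells, against 4.34% in YBX1-/- cells and 5.57% in WT cells for the other members. The median half-life from the straight line was 5.23 h in YBX1-/- cells and 6.26 h in WT cells for TOP members, and 4.18 h in YBX1-/- cells and 3.74 h in WT cells for the others. Eif4b was the exception on the list, with 16.2% retained in YBX1-/- cells and 20.3% in WT cells at 6 h. Sorted by the pyrimidine run at the RefSeq start instead of the list, the members lay closer together. The 13 tested members with a run retained a median of 21.1% in YBX1-/- cells and 36.4% in WT cells at 6 h. The 31 with a window but no run retained 17.4% in YBX1-/- cells and 25.7% in WT cells.

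Ribosomal protein genes, the largest class of 5′ TOP mRNAs, were set beside them. The 48 tested cytosolic ribosomal protein genes retained a median of 67.7% in YBX1-/- cells and 69.7% in WT cells at 6 h, so the TOP factors lay between these and all genes. The 19 tested cytosolic aminoacyl-tRNA synthetase genes, which also serve translation, retained 16.8% in YBX1-/- cells and 26.3% in WT cells, near the level of all genes. Of 36 other listed genes of translation and its control, 29 were tested, and label fell in 27 of them in YBX1-/- cells and in 27 in WT cells. Their median retained label was 15.6% in YBX1-/- cells and 22.3% in WT cells. They ran over 0 to 105.9% in YBX1-/- cells and 0 to 57.9% in WT cells. The poly(A)-binding protein gene Pabpc1, another known TOP mRNA, retained 61.8% in YBX1-/- cells and 57.9% in WT cells, and Larp1 retained 6.9% in YBX1-/- cells and 13.0% in WT cells. High values were not confined to genes named here as TOP mRNAs: Mcts1 retained 76.45% in YBX1-/- cells and 52.0% in WT cells.

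Interval length moved with these values. The tested Eif3 intervals had a median length of 168 bases, against 1676 for Eif4 and 1168 for all genes tested. Across all 7411 genes, label retained at 6 h had a Spearman rho of -0.358 with interval length in YBX1-/- cells and -0.270 in WT cells, and across the 55 members -0.378 in YBX1-/- cells and -0.316 in WT cells. The share of T in the interval, with a median of 29.3% in members and in all genes, had a rho of -0.143 in YBX1-/- cells and -0.0024 in WT cells across members. Among intervals of 200 to 1000 bases, 3 TOP members retained a median of 68.8% in YBX1-/- cells and 58.5% in WT cells, and 18 other members 13.1% in YBX1-/- cells and 20% in WT cells. In those over 1000 bases, 3 TOP members retained 49.3% in YBX1-/- cells and 39.5% in WT cells, and 20 other members 14.8% in YBX1-/- cells and 24.5% in WT cells. Among the short intervals under 200 bases, 3 TOP members retained 64.3% in YBX1-/- cells and 56.1% in WT cells, 8 other members 34.4% in YBX1-/- cells and 44.3% in WT cells, and all 567 such genes 44.2% in YBX1-/- cells and 42.0% in WT cells. The part of interval length in the group medians was not tested beyond these values.

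Eef1a1, the aminoacyl-tRNA carrier and the Eef member with the highest coverage, was read at chr9:78478449-78478733. It had rates of 41.8, 43.3, 39.8, 37.4, 30.4, 15.9, 7.93 and 1.9% in YBX1-/- cells at 0, 0.5, 1, 3, 6, 12, 18 and 24 h, against 57.4, 64.2, 62.6, 51.7, 39.3, 16, 6.84 and 5.56% in WT cells. Both courses fell little to 3 h, and at 12 h they were about equal. Its slope was -0.17 ± 0.017 log2 per h (SE) in YBX1-/- cells and -0.16 ± 0.013 in WT cells. These correspond to label half-lives of 5.86 h in YBX1-/- cells and 6.26 h in WT cells. The gene has many near-identical pseudogenes, and the sources used here do not say how reads shared with them were counted.

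The 3 subunits of the nucleotide exchange complex for eEF1A also kept more label at 6 h than the median gene in both genotypes. Eef1b2, singled out because it retained more label than any other tested member in WT cells, had 45, 38, 33.2, 34.6, 24.9, 8.82, 5.84 and 3.79% in YBX1-/- cells and 48, 47.4, 45.8, 41.9, 39.3, 22.8, 6.68 and 5.85% in WT cells. Its WT rate at 6 h was 83.5% of the early rate, above 98.6% of all genes tested. Eef1g, with the longest WT half-life of the Eef group, had 23.5, 35.2, 34.7, 39.4, 21.4, 11.8, 3.45 and 0.926% in YBX1-/- cells and 45.9, 61, 49.5, 43.2, 30.5, 5.52, 4.43 and 15.2% in WT cells. The WT rate at 24 h was higher than those at 12 and 18 h, and the half-lives, with these late rates included, were 4.96 h in YBX1-/- cells and 7.85 h in WT cells. Eef1d, the third subunit, had 20, 20, 23.6, 23.4, 12, 1.05, 1.74 and 0.295% in YBX1-/- cells and 34.4, 42.4, 36.9, 32.5, 15, 5.06, 0 and 0% in WT cells. It began at the lowest early rates of the 3 in both genotypes, and its WT rates at 18 and 24 h were listed at 0.

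Eef2, the translocation factor, had 30.4, 32.6, 26.6, 24.8, 13.7, 3.63, 1.3 and 0.718% in YBX1-/- cells and 39.5, 43.4, 40.6, 31.8, 20.7, 3.82, 1.73 and 2.04% in WT cells. At 6 h, 45.9% of the early label was left in YBX1-/- cells and 50.4% in WT cells. Eef1e1, which in spite of its name works in the multi-synthetase complex, had 40.7, 42.8, 35.2, 17.7, 2.73, 1.72, 1.3 and 0.885% in YBX1-/- cells and 58, 64.4, 57.8, 20.4, 12.2, 3.08, 2.68 and 0% in WT cells. It started about as high as Eef1a1 in both genotypes, and at 6 h it was below the median gene, with 6.89% retained in YBX1-/- cells and 20.4% in WT cells.

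The genes of the modifying enzymes lay on both sides of the median gene at 6 h. Eef2k, the kinase that inactivates eEF2, had 35.7, 32.6, 32.7, 17.1, 1.5, 0.787, 1.68 and 0.551% in YBX1-/- cells and 31.6, 61.1, 44, 5.08, 6.58, 0, 1.23 and 0% in WT cells. The eEF1A methyltransferase gene Eef1akmt2 had the shortest WT half-life of the group, with 2.71 h in YBX1-/- cells and 2.32 h in WT cells. Its rates were 75, 37.9, 22.5, 32.4, 7.07, 0, 1.7 and 0% in YBX1-/- cells and 55.3, 53.3, 54.8, 43.9, 7.69, 2.04, 0 and 0% in WT cells, with zeros in both genotypes late in the chase. Eef1akmt4 had 8.33, 38.9, 32, 20.6, 8.62, 1.13, 0.42 and 0.275% in YBX1-/- cells and 43.6, 55.2, 47.1, 16.6, 9.49, 5.15, 0.595 and 0.478% in WT cells. The first YBX1-/- value of Eef1akmt4 comes from the library that stood apart and is far below the next. Eef1akmt1 retained 22.2% in YBX1-/- cells and 36.9% in WT cells at 6 h, and Eef2kmt, the eEF2 methyltransferase gene, 7.61% in YBX1-/- cells and 35.7% in WT cells. Eef2kmt was labelled little from the start, with no rate above 15.2% in any library.

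The Eif3 subunits divided into a majority that held label and a few that did not. Eif3f, which has a deubiquitinase fold and belongs to a module of eIF3, had 36.2, 32.6, 20.5, 19.1, 14.7, 6.51, 4.17 and 1.15% in YBX1-/- cells and 41.8, 47.8, 35.4, 41.1, 23.3, 15.3, 5.27 and 3.53% in WT cells. Eif3h, its partner in that module, had 34.6, 32.5, 23.8, 23.4, 15.5, 5.61, 1.45 and 2.06% in YBX1-/- cells and 43.3, 46.4, 40.6, 33.8, 24.3, 11.1, 3.24 and 5.13% in WT cells. Both fell slowly, with half-lives of 5.5 h in YBX1-/- cells and 6.39 h in WT cells for Eif3f, and 5.23 h in YBX1-/- cells and 6.36 h in WT cells for Eif3h. Eif3m, which joins them there, had the longest WT half-life of the Eif3 group, with 4.95 h in YBX1-/- cells and 6.97 h in WT cells. Its rates were 75, 35.7, 46.6, 30.3, 18.9, 8.7, 6.45 and 1.3% in YBX1-/- cells and 45.4, 67.1, 73.1, 49.3, 35.3, 16.7, 15 and 4.76% in WT cells, from an interval of only 65 bases. The YBX1-/- value at 0 h, the highest of the course, is again from the library that stood apart.

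Eif3i, Eif3k, Eif3l, Eif3c and Eif3d also lay above the median of all genes at 6 h in both genotypes. They retained 51.4, 68.7, 32.6, 53.5 and 31.4% in YBX1-/- cells, in the order named, against 65.3, 46.2, 51.7, 44.1 and 42.4% in WT cells. Eif3a, the largest subunit and the Eif3 member with the highest coverage, had 36.7, 44.8, 39.7, 19.4, 2.89, 1.84, 1.08 and 0.895% in YBX1-/- cells and 53, 62.5, 48.1, 21, 9.46, 2.5, 0.981 and 0.943% in WT cells. Eif3a began above the median of its group in all 6 libraries of 0 to 1 h and retained the least of the tested members of the group at 6 h in both genotypes. Eif3j1, a loosely bound subunit, had 23.1, 40.3, 36.3, 24.6, 4.88, 0, 1.46 and 0.862% in YBX1-/- cells and 47.3, 58.5, 52.4, 33, 11, 2.16, 1.96 and 3.57% in WT cells.

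Eif3b, an RNA-binding core subunit, had the shortest WT half-life of the Eif3 group, with 4.31 h in YBX1-/- cells and 2.66 h in WT cells. Its rates were 32.3, 33.8, 28.8, 21, 11.9, 2.08, 0.832 and 1.27% in YBX1-/- cells and 44.4, 46, 40.1, 28.9, 11.1, 1.35, 0.473 and 0% in WT cells. The YBX1-/- rates were below the WT rates to 3 h and above them at 6, 12, 18 and 24 h. Eif3e, named after its values were seen, had 0, 0, 42.1, 30, 18.8, 0, 16.7 and 8.33% in YBX1-/- cells and 29.4, 52.9, 61.9, 20.7, 23.8, 12.5, 8.57 and 0% in WT cells. With a mean of 1.10 CPM it was the least abundant member, and 3 of its 8 YBX1-/- rates, including those at 0 and 0.5 h, were listed at 0. Its 134% of label retained at 6 h in YBX1-/- cells therefore rests on 1 early rate above 0. Eif3g, which was not tested, was at 0 in 4 YBX1-/- libraries and 2 WT libraries.

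The cap-binding side was labelled like all genes at the start and lost label at about their pace. Eif4a1, the helicase subunit of eIF4F, had 36.7, 36.6, 29.1, 16, 3.52, 0.592, 1.27 and 0.913% in YBX1-/- cells and 44.3, 47.8, 37.7, 20.7, 7.36, 0.977, 0.864 and 0.89% in WT cells. Eif4e, the cap-binding subunit, had 44.5, 42.7, 32.3, 24.8, 5.25, 1.28, 1.19 and 0.849% in YBX1-/- cells and 44.6, 57.6, 56.9, 19.6, 13.6, 0.848, 0.533 and 1.46% in WT cells. Neither kept more label at 6 h than 25.7% of its early rate. Eif4g1, the scaffold, had 46.5, 25, 24.4, 16.2, 6.75, 3.82, 4.95 and 4.61% in YBX1-/- cells and 38.1, 42.9, 40, 15, 15.2, 9.09, 1.56 and 5.82% in WT cells. It had the longest WT half-life of the group, with 7.93 h in YBX1-/- cells and 6.47 h in WT cells. Its late rates did not go below 3.82% in YBX1-/- cells or, apart from 1.56% at 18 h, below 5.82% in WT cells.

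The helicase cofactor genes Eif4b and Eif4h had about the same half-lives in both genotypes, 3.8 and 3.85 h in YBX1-/- cells and 3.81 and 3.73 h in WT cells. Eif4a3, the helicase of the exon junction complex, had 35.7, 36.8, 32.7, 20.6, 4.98, 1.27, 1.48 and 0.717% in YBX1-/- cells and 38.5, 49.3, 46, 13.6, 12.7, 1.5, 1.24 and 2.22% in WT cells. Eif4enif1, which carries eIF4E into the nucleus and to P-bodies, had the shortest WT half-life of the group, with 3.18 h in YBX1-/- cells and 2.84 h in WT cells. Its rates were 35.1, 37.5, 29.3, 17, 3.87, 0.885, 2.61 and 0% in YBX1-/- cells and 46, 47.9, 39.8, 18.5, 9.14, 3.31, 0.721 and 0% in WT cells. Eif4e3, another cap-binding protein gene, retained 11.2% in YBX1-/- cells and 19.5% in WT cells at 6 h. Eif4ebp3, a repressor of eIF4E that was not tested, was at 0 from 6 h on in YBX1-/- cells, and its WT rates at 6, 12, 18 and 24 h were 5.71, 0, 1.59 and 0%.

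Among eIF2 and its regulators, Eif2s1, the alpha subunit whose phosphorylation stops initiation, had 39.1, 37, 32.2, 28, 7.12, 2.57, 0.997 and 1.98% in YBX1-/- cells and 44.5, 55.7, 50.5, 34.6, 13, 2.42, 1.81 and 1.68% in WT cells. Eif2s2, the beta subunit, retained 17.4% in YBX1-/- cells and 33.1% in WT cells at 6 h. The 3 tested eIF2B subunit genes, Eif2b1, Eif2b2 and Eif2b5, retained 5.35, 13.1 and 13% in YBX1-/- cells, against 18.7, 31.3 and 18.5% in WT cells. In all 3 the YBX1-/- value was the lower, as was the median over all genes tested, at 14.7% in YBX1-/- cells and 22.8% in WT cells. Eif2b5, the catalytic subunit, had 33.3, 28.2, 20.9, 23.4, 3.57, 0, 0 and 1.52% in YBX1-/- cells and 29.1, 38.1, 30.3, 21.5, 6.02, 3.57, 0.848 and 2% in WT cells, with zeros at 12 and 18 h in YBX1-/- cells.

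Eif2a, which in spite of its symbol is not an eIF2 subunit but a separate initiator tRNA-binding protein, had the longest WT half-life of any tested member, with 7.97 h in YBX1-/- cells and 11.7 h in WT cells. Its rates were 37, 43.3, 29.9, 29.3, 10.9, 4.76, 6.41 and 6.17% in YBX1-/- cells and 41.8, 41.4, 60.3, 11.5, 18.4, 7.44, 14.7 and 10.2% in WT cells. They fell early, like those of other Eif2 members. At 12 to 24 h they stayed at 4.76 to 6.41% in YBX1-/- cells and 7.44 to 14.7% in WT cells. The half-lives of Eif2a depended on the time range and the interval. Over 0 to 6 h its WT slope was -0.28 log2 per h, against -0.0855 over 24 h. With the coverage-weighted mean over its intervals, the slope of Eif2a was steeper in both genotypes and the half-life shorter. Eif2ak1, the heme-regulated kinase HRI, which was named after its values were seen, was labelled little in YBX1-/- cells. Its rates were 4.13, 6.82, 2.59, 3.76, 1.14, 0.183, 0.468 and 0.579% in YBX1-/- cells and 11.6, 25.7, 29.6, 3.16, 9.37, 0.647, 1.35 and 0% in WT cells. At 0, 0.5 and 1 h all 3 YBX1-/- values were below all 3 WT values, and over all 8 time points the YBX1-/- rate was lower at 6. The level difference of Eif2ak1 was -0.84 ± 0.67 on the log2 scale (SE, adjusted p = 0.807, limma) and did not pass. Eif2ak2, the kinase activated by double-stranded RNA (PKR), was not tested, with 5 rates at 0 out of 16.

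Of the remaining initiation factors, Eif5a, which acts in elongation and termination and carries hypusine, was the most abundant member at a mean of 537 CPM. It had 30.7, 32.1, 29.1, 28.4, 18.2, 5.34, 1.99 and 1.13% in YBX1-/- cells and 43.8, 44.9, 39.4, 30.3, 22.7, 6.37, 2.53 and 1.2% in WT cells. It also had the longest WT half-life of its group, with 4.74 h in YBX1-/- cells and 4.5 h in WT cells. Eif5, the GTPase activator of eIF2, was named after its values were seen and had 31.2, 36, 51, 15.9, 38, 0.656, 0.79 and 0.37% in YBX1-/- cells and 64, 52.7, 39.4, 26.6, 7.65, 3.6, 0.568 and 0.826% in WT cells. The YBX1-/- rate of 38.0% at 6 h stands between 15.9% at 3 h and 0.656% at 12 h, and no replicate exists to check it. Its interval is 173 bases long and overlaps coding sequence.

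Eif6, which keeps large subunits apart from small ones, had the shortest WT half-life of its group, with 4.24 h in YBX1-/- cells and 3.36 h in WT cells. Its rates were 31, 37.4, 33.5, 19.5, 4.16, 2.54, 1.28 and 0.772% in YBX1-/- cells and 49.3, 56.4, 50.4, 24, 8.89, 1.93, 0.673 and 0.521% in WT cells. Eif5b, the subunit-joining GTPase, was labelled less than its neighbours, with no rate above 23.8% in YBX1-/- cells or 26.7% in WT cells. Eif1ad, a protein related to eIF1A, had 38.3, 40, 32.6, 16.1, 2.36, 1.35, 0.586 and 1.19% in YBX1-/- cells and 41.1, 60.1, 38.9, 33, 10.3, 1.89, 0.749 and 0.505% in WT cells.

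The genotypes were compared on values from which each library's median had been subtracted, because labelling as a whole was lower in YBX1-/- cells. At 0.5, 1 and 6 h the rate was lower in YBX1-/- cells in 52 of 55 members each, beside 85.5, 87.4 and 86.0% of all genes tested. At 0, 3, 12, 18 and 24 h it was lower in 43, 38, 38, 26 and 28 members, in that order, beside 75, 59.1, 54.6, 41.0 and 49.4% of all genes tested. The members' median rate at 1 h was 31.3% in YBX1-/- cells and 45.8% in WT cells, and that of all genes 29.8% in YBX1-/- cells and 43.6% in WT cells.

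After that subtraction, no member passed the test for a genotype difference in the pace of label loss (0 of 55, limma interaction, adjusted p under 0.05), beside 0.108% of all 7411 genes (3 slower and 5 faster in YBX1-/- cells). At an unadjusted p under 0.05 there were 5 members, 3 slower and 2 faster, or 9.09%, beside 12.5% of all genes. The median difference was 0.0053 log2 per h over members and 0.0037 over all genes, and 29 members had a positive value, which means slower loss in YBX1-/- cells, and 26 a negative one. The smallest p belonged to Eif2s3x, the X-linked gene of eIF2 gamma, whose slopes differed by 0.15 ± 0.022 (log2 per h, SE; adjusted p = 0.055). It passed the threshold with the 12 h time point left out (0.14, adjusted p = 0.0213), with 18 h left out (0.17, adjusted p = 0.0301), in the limma fit of 0 to 12 h (0.23, adjusted p = 0.0423) and without the subtraction of library medians (0.17, adjusted p = 0.0416). Without the YBX1-/- 0 h library the adjusted p was 0.206, and over all alternatives it ran from 0.0213 to 0.915. Its rates were 20, 41, 38, 32.5, 13.7, 6.67, 6.12 and 0.794% in YBX1-/- cells and 35.5, 71.4, 64.6, 37.8, 20.8, 1.56, 1.68 and 0% in WT cells. They were lower in YBX1-/- cells to 6 h and higher at 12, 18 and 24 h, and its half-life was 5.12 h in YBX1-/- cells and 2.74 h in WT cells, the shortest WT value of the Eif2 group. At 6 h, however, Eif2s3x retained 41.6% in YBX1-/- cells and 36.4% in WT cells, beside medians of 14.7% and 22.8% over all genes. Over 0 to 6 h its slope was -0.17 log2 per h in YBX1-/- cells and -0.23 in WT cells. Over 24 h these were -0.20 in YBX1-/- cells and -0.36 in WT cells, with the low late rates included.

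By the smallest p in each group, the other members with slower loss in YBX1-/- cells were Eif3b (0.12 ± 0.037, adjusted p = 0.212), Eef1d (0.13 ± 0.06, adjusted p = 0.417), Eif4e2 (0.073 ± 0.047, adjusted p = 0.581) and Eif6 (0.042 ± 0.02, adjusted p = 0.447), all in log2 per h by limma and none past the threshold. Eif3b passed with 18 h left out (0.16, adjusted p = 0.0472, limma). Its WT rate at 24 h was listed at 0. With 24 h left out, the Eif3b difference was well below that of the full course and did not pass. The full-course values of Eif3b also lie close to those of Eif3c, with 0.12 ± 0.048 (adjusted p = 0.311, limma). Those with faster loss were Eif3m (-0.079 ± 0.023, adjusted p = 0.2), Eif2a (-0.06 ± 0.028, adjusted p = 0.423), Eef2 (-0.043 ± 0.02, adjusted p = 0.441), Eif4a3 (-0.047 ± 0.024, adjusted p = 0.472) and Eif5a2 (-0.24 ± 0.12, adjusted p = 0.468). Of the 9 listed TOP members, 7 had a negative value and 2 a positive one, with a median of -0.034 log2 per h. Of 48 ribosomal protein genes 29 were negative and 19 positive, with a median of -0.019, and of all 7411 genes 3524 were negative and 3887 positive. None of these TOP members passed in this fit. The signs also depended on the time range: over 0 to 12 h Eef2 was positive (0.031, adjusted p = 0.547, limma) and Eef1d negative (-0.089, adjusted p = 0.45, limma). Eef1g, a TOP member with -0.095 ± 0.049 (adjusted p = 0.472, limma), had the opposite sign over 0 to 12 h and passed there (0.15, adjusted p = 0.0463, limma), and with only 24 h left out it was 0.026 (adjusted p = 0.767, limma), so its sign in the full course rests on the 24 h time point.

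The level over all time points, relative to the library medians, differed in 0 of 55 members, beside 0% of all 7411 genes (limma, adjusted p under 0.05). At an unadjusted p under 0.05 there were 0 members, beside 415 of all genes (5.6%). The members with the smallest p on the positive side of each group were Eef2k (0.95 ± 0.58 log2, SE), Eif2s3x (0.82 ± 0.45), Eif3b (0.76 ± 0.45), Eif4e2 (0.50 ± 0.43) and Eif6 (0.16 ± 0.21). Those on the negative side were Eif3j1 (-0.97 ± 0.46), Eif2b5 (-0.93 ± 0.67), Eif4a2 (-0.65 ± 0.40), Eef1akmt4 (-0.45 ± 0.37) and Eif1ad (-0.12 ± 0.28). With 1 library per genotype and time, each of these rests on 8 pairs of libraries. Eif3j1 and Eif4a2 were relatively lower in YBX1-/- cells at 7 of 8 time points. So were Eif4b and Eef1e1, although the level difference of Eef1e1 was positive (0.016 log2). The share of all genes with such a count was not taken.

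**Figure D3:**
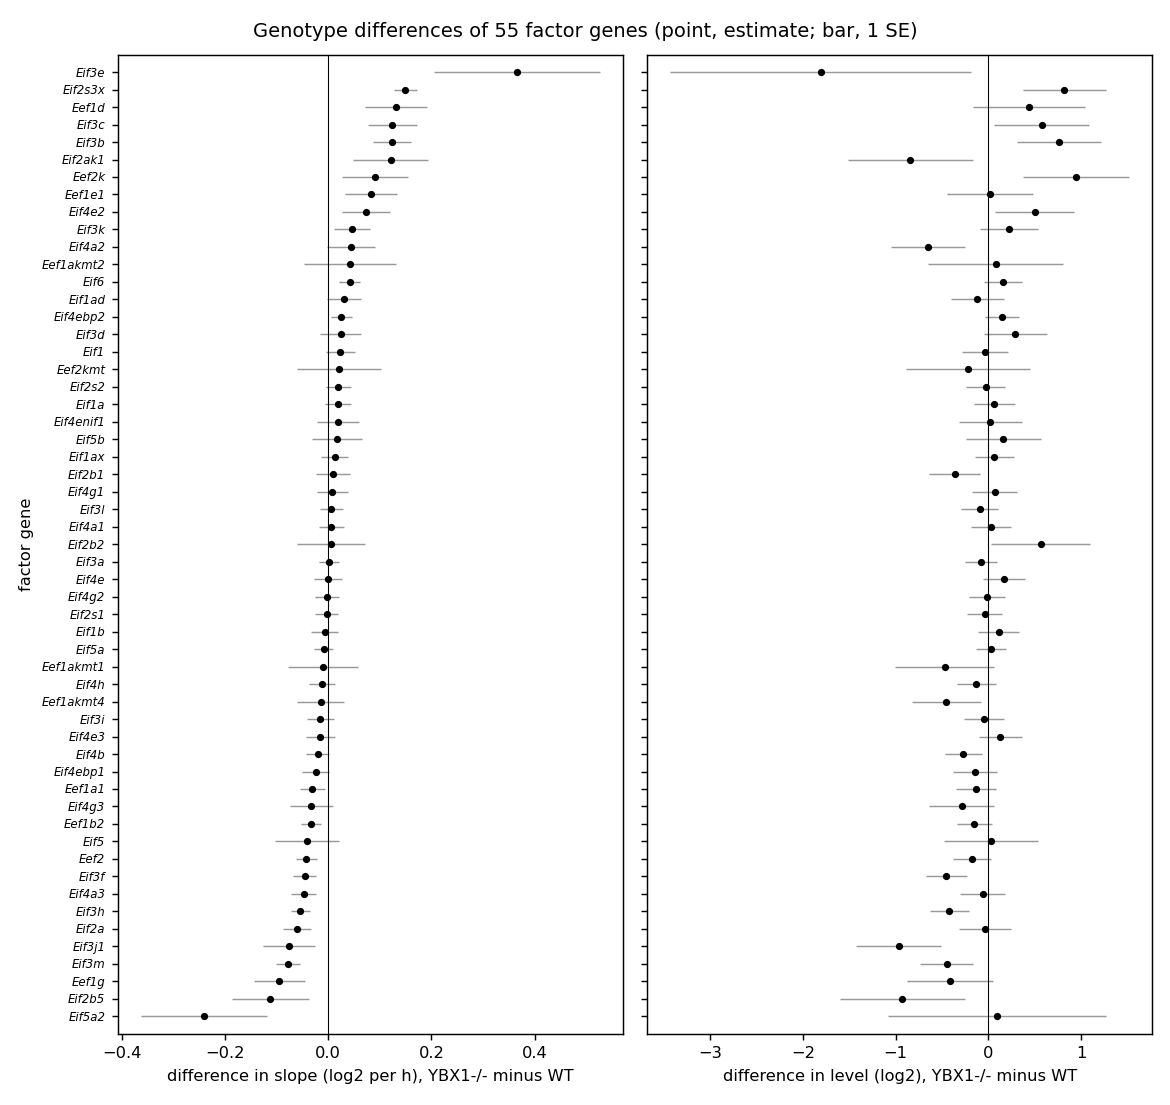
Difference between YBX1-/- and WT in slope (left, log2 per h) and in level (right, log2) for each of the 55 tested members (y axis, ordered by the slope difference), as the limma estimate with a bar of 1 SE on either side. Most slope differences lie near 0, Eif2s3x stands at 0.15 with a short bar, and no member passed the test in either panel.

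Closely related genes were compared within libraries by exchanging the 2 genes of a pair (two-sided exact permutation test on the mean difference in log2 rate, adjusted over 8 tested pairs of 11 listed). In 5 of the 8 pairs the mean differed (adjusted p under 0.05). Pairs of unrelated genes were not set beside them, so this count has no background share. The pairs not tested were Eif2s3y and Eif2s3x, Eef1a2 and Eef1a1, and Eif3j1 and Eif3j2, in each of which a gene missed a minimum.

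Eif1a and Eif1ax, which encode forms of eIF1A, differed most clearly. Eif1a had 32.3, 45.6, 29.6, 12, 2.85, 1.65, 1.25 and 0.613% in YBX1-/- cells and 48, 55.3, 54.6, 10.5, 7.46, 1.51, 1.09 and 0.459% in WT cells. Eif1ax, on the X chromosome, had 49.4, 39.1, 34.6, 34.6, 19.3, 5.84, 3.12 and 1.85% in YBX1-/- cells and 52.3, 55.3, 59.3, 49, 23.5, 7.24, 4.96 and 0.988% in WT cells. The courses crossed at 0.5 h in YBX1-/- cells and nearly met to 1 h in WT cells, and from 3 h on Eif1a was lower in every library of both genotypes. The mean log2 difference (Eif1a minus Eif1ax) was -1.17 ± 0.93 (SD over 16 libraries, adjusted p = 0.00195, exact permutation test), with Eif1a the higher in 2 of 16. It was -1.17 in YBX1-/- cells and -1.17 in WT cells.

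Eif1 and Eif1b, which encode the start-codon selection factor eIF1, differed by less. Eif1b had 47.4, 42.8, 37.1, 17.4, 3.8, 1.7, 1.32 and 0.817% in YBX1-/- cells and 53.2, 60.8, 52, 18.8, 8.59, 0.885, 0.984 and 1.4% in WT cells. Eif1 had 26, 34.2, 27.2, 10.4, 3.61, 1.04, 1.11 and 0.57% in YBX1-/- cells and 37.6, 41.6, 42.1, 17.4, 8.72, 1.32, 0.881 and 0.416% in WT cells. Eif1b was the higher in 14 of 16 libraries, with a mean difference of 0.40 ± 0.45 (SD, adjusted p = 0.00537, exact permutation test), and it was already higher in all 6 libraries of 0 to 1 h.

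Among the eIF4E repressor genes, Eif4ebp2 had 30.9, 35.4, 32.6, 25.5, 7.18, 2.75, 1.3 and 1.01% in YBX1-/- cells and 42.6, 56.5, 53.3, 21.8, 11, 3.2, 1.2 and 0.554% in WT cells. Eif4ebp1 had 29.6, 32.1, 28.4, 19.9, 4.49, 0.876, 0.683 and 0.371% in YBX1-/- cells and 43.5, 42.7, 40.3, 23, 9.81, 0.856, 0.904 and 0.738% in WT cells. Eif4ebp2 was the higher in 13 of 16 libraries, in 8 of 8 in YBX1-/- cells and in 5 of 8 in WT cells. The mean difference was 0.48 ± 0.60 (SD, adjusted p = 0.00537, exact permutation test).

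Of the scaffold genes, Eif4g3 had 25, 21.6, 33.3, 7.9, 2.31, 4, 2.44 and 0.452% in YBX1-/- cells and 42.4, 43.9, 40.3, 11, 6.29, 3.3, 1.09 and 3.03% in WT cells, below Eif4g1 by a mean of -0.72 ± 0.88 log2 (Eif4g3 minus Eif4g1, SD, adjusted p = 0.00537, exact permutation test). Over 0 to 6 h alone it was -0.47 (adjusted p = 0.1, exact permutation test). Eif4g2, a relative that lacks the eIF4E-binding part and has the highest coverage of the group, had 36.8, 46.8, 35.6, 29.5, 9.7, 2.83, 2.58 and 0.734% in YBX1-/- cells and 51, 62.4, 57.9, 36.1, 18.2, 3.55, 1.1 and 1.5% in WT cells. Its mean difference from Eif4g1 was -0.13 ± 1.07 (adjusted p = 0.862, exact permutation test). That mean hides a crossing: Eif4g2 was above Eif4g1 in 9 of the 10 libraries of 0 to 6 h and below it in all 6 later ones, and over 0 to 6 h alone the difference was 0.55 (adjusted p = 0.0234, exact permutation test).

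Eif5a2, a second eIF5A gene, had 50, 42.9, 54.8, 33.3, 15.4, 0, 0 and 0% in YBX1-/- cells and 40.9, 17.6, 3.03, 4.17, 12.4, 10.7, 1.82 and 0% in WT cells, against the values of Eif5a given above. Its mean difference from Eif5a was -1.50 ± 2.16 (adjusted p = 0.0251, exact permutation test). With a mean of 1.69 CPM and 4 of 16 rates at 0, Eif5a2 is thinly covered. Over 0 to 6 h alone the difference was -0.68 (adjusted p = 0.254, exact permutation test), and with pseudocounts of 0.01 and 0.5 over all times it was -2.31 and -0.97.

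The pairs of helicase genes and of cap-binding genes did not pass the test over 16 libraries. Eif4a2 had 27.6, 23.5, 17.4, 9.11, 1.53, 0.716, 3.37 and 0.605% in YBX1-/- cells and 47.1, 57.6, 49.9, 29.6, 9.85, 1.39, 0.68 and 1.75% in WT cells. The mean difference from Eif4a1 was 0.0042 ± 0.68 log2 (adjusted p = 0.98, exact permutation test). It went in opposite directions in the genotypes: -0.34 ± 0.78 in YBX1-/- cells, with Eif4a2 below Eif4a1 in 6 of 8 libraries, and 0.34 ± 0.35 in WT cells, with Eif4a2 above in 7 of 8. This contrast was noticed in the data and was not tested, and the level difference of Eif4a2 itself did not pass (adjusted p = 0.779, limma). Eif4e2, the gene of the cap-binding repressor 4EHP, had 46.2, 33.5, 27.1, 26.7, 5.54, 3.12, 1.41 and 0.796% in YBX1-/- cells and 36.6, 48.5, 45.5, 21.4, 14.4, 1.68, 2.55 and 0% in WT cells. It differed from Eif4e by -0.04 ± 1.23 (adjusted p = 0.98, exact permutation test), and the 0 at 24 h in WT cells gives the largest single difference.

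**Figure D4:**
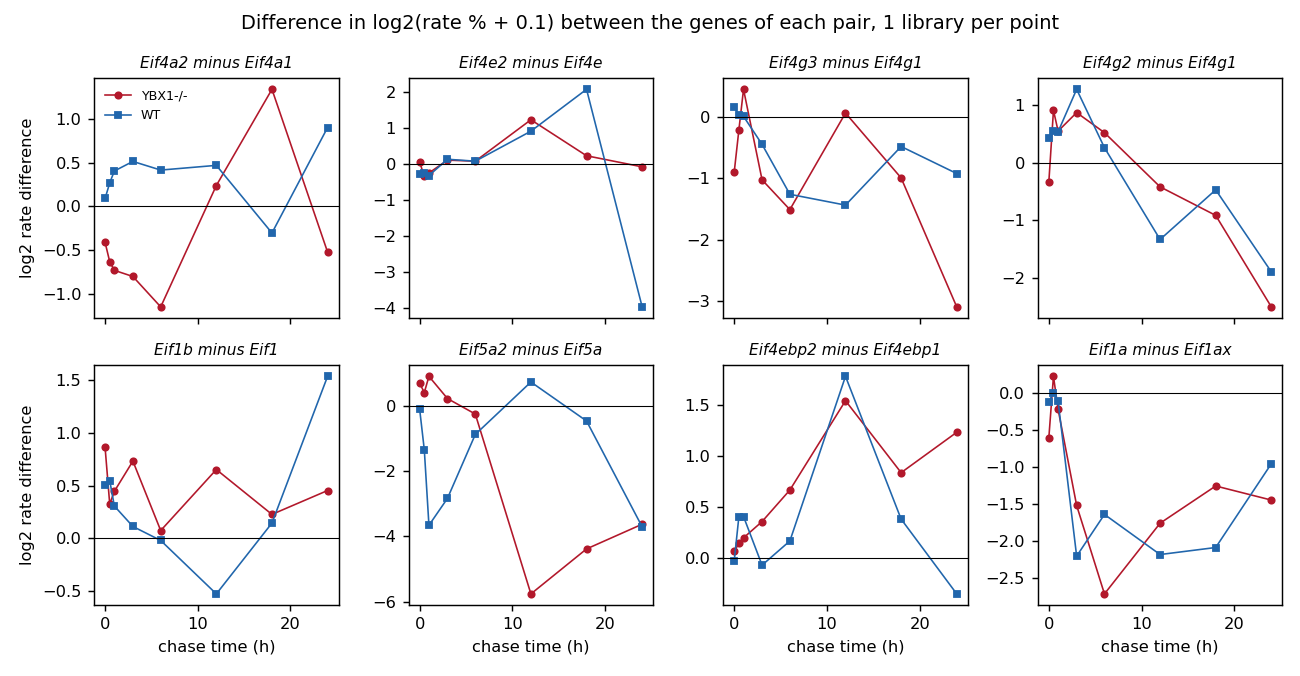
Difference in log2(rate in percent + 0.1) between the genes of each tested pair (y axis) by chase time in hours (x axis), 1 library per point, with YBX1-/- as circles and WT as squares; the horizontal line is no difference. The Eif1a minus Eif1ax points lie below the line from 3 h on in both genotypes, and the Eif4a2 minus Eif4a1 points lie on opposite sides of the line in the genotypes to 6 h.

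The Y-linked copy of eIF2 gamma had rates above 0 only in YBX1-/- libraries. Eif2s3y, read at chrY:1028252-1028594 with a mean of 2.64 CPM, had rates of 38.5, 32.8, 32.8, 24.6, 10.1, 4.35, 1.67 and 2.87% in YBX1-/- cells and was listed at 0 in all 8 WT libraries. Among 1743 genes of the table with a mean of 2 to 4 CPM, 4 were at 0 in all 8 WT libraries and 13 in all 8 YBX1-/- libraries. Being at 0 in all 8 WT libraries while above 0 in at least 6 YBX1-/- libraries was shared by 2 of them, 1 of which is not on the Y chromosome. In YBX1-/- cells Eif2s3y had 29% of its early label left at 6 h, and Eif2s3x 41.6%.

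The other Y-linked genes of at least 0.5 CPM were set beside it. The demethylase gene Kdm5d had 33.3, 53.1, 36.4, 30.8, 3.03, 0, 3.57 and 0% in YBX1-/- cells and was at 0 in all 8 WT libraries. Ddx3y, a helicase gene, had 37.5, 51.2, 27.9, 11.9, 3.31, 0, 1.94 and 1.16% in YBX1-/- cells and 0, 16.7, 100, 0, 0, 0, 0 and 0% in WT cells. The WT value of 100% at 1 h shows that at least some Ddx3y reads were present in that library. Because a rate is a share within a gene's own reads, it does not tell the absence of Eif2s3y RNA in WT cells from the absence of its label, nor fewer cells with the transcript from less of it per cell. Genotype and any difference in the sex of the animals cannot be told apart here. The X- and Y-linked genes are close relatives, and reads that fit both could be assigned to either. Eif2s3y did not enter the tests above, since it was above 0 in 8 libraries only.

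**Figure D5:**
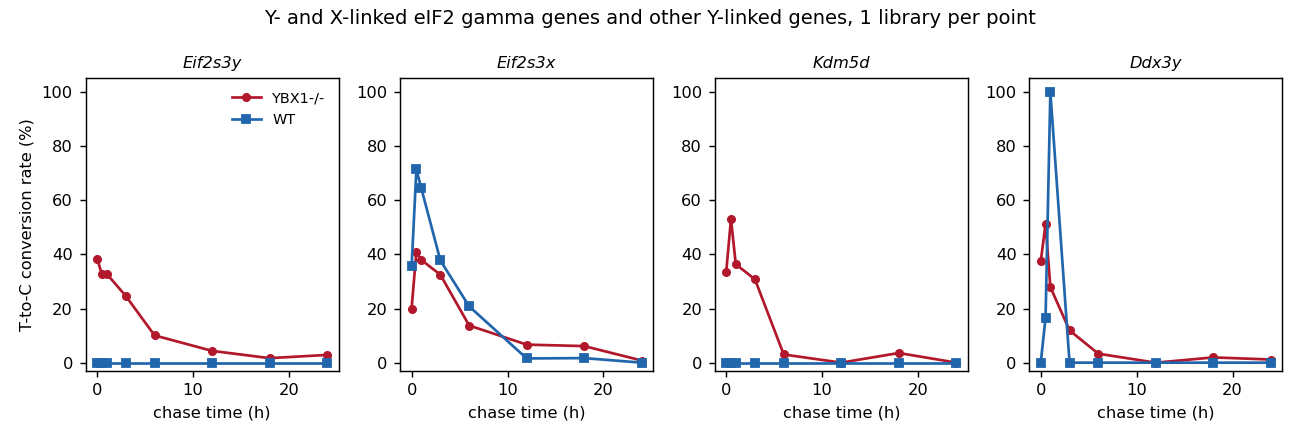
T-to-C rate in percent (y axis) by chase time in hours (x axis) for Eif2s3y, Eif2s3x, Kdm5d and Ddx3y, with 1 library per point, YBX1-/- as circles and WT as squares. Eif2s3y and Kdm5d follow a declining course in YBX1-/- and lie at 0 in every WT library, while Eif2s3x was labelled in both genotypes.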

How the data were processed

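PolyA RNA of 16 libraries was measured by SLAM-seq. The authors deposited 1 table of 86993 intervals (74385 different ones, 21177 genes) with a T-to-C rate per library as a fraction from 0 to 1. Per the file headers, CPM, coverage on Ts (a signal) and T content were deposited as means over libraries. CASAVA, HISAT2 2.1.0 and the human build GRCh38 are named in the submitters' processing notes; the mouse intervals matched UTR edges of GENCODE M21 (GRCm38) for all 62 members, and coordinates are 1-based in that build. The program that counted conversions, the denominator of the rate and the depth per library are not given in the sources used here. No unlabelled library was used, so background T-to-C changes were not subtracted.

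Identifiers were matched to symbols for 21148 genes. For each gene, the interval of highest mean CPM was used. Rates in percent were analysed as log2(rate + 0.1), where at least 12 of 16 were above 0. On this scale small differences between low rates, and a rate of 0, weigh heavily. The added 0.1 limits this only in part. Label loss was the slope over hours within a genotype (limma 3.58.1 with a trend, R 4.3.3), and half-life was minus 1 over the slope. Genotype differences in slope and level were terms of limma models that hold a factor for time point, fitted to library-median-centred values, with 6 residual degrees of freedom for the slope. Benjamini-Hochberg adjusted p under 0.05 over 7411 genes was the threshold. Paralog pairs were compared by an exact permutation test. The fits were tested on simulated data. Nothing says whether libraries came from separate cultures or animals.

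Members with full values were, per group, the highest coverage, the longest and shortest WT half-life, the smallest p in each direction for slope and level, and both genes of each tested pair; others are given by retained label, half-life or range. Eef1b2, Eef1e1, Eif2ak1, Eif2s3y, Eif3e, Eif3f, Eif3h and Eif5 have full values outside this rule and were named after their values were seen. Members, lists, tests and alternatives were chosen with earlier results of these data known. Alternatives were other pseudocounts, filters, intervals, time ranges, scales and fits, and, for retained label, other bases added after the table was seen. Sequences are from RefSeq promoter windows, with 13 members not in that table.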

Additional observations from a re-analysis of the deposited data

How the results depend on the processing

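The count of members whose label fell stayed within 45 to 55 in YBX1-/- cells and 46 to 60 in WT cells under all alternatives but 1: with rates above 0 in all 16 libraries it was 35 of 35 tested in each (2810 genes in YBX1-/- cells and 2807 in WT cells over all genes). The count of members differing in slope, 0 in the main result, was 1 without 12 h, 2 without 18 h, 2 over 0 to 12 h and 1 without centring, each including Eif2s3x, with Eif3b added without 18 h and Eef1g over 0 to 12 h. Over all genes that count, 8 in the main result, was 0 without 0 h, without 0.5 h, over 0 to 6 h, on the linear scale and without the YBX1-/- 0 h library; 1 with pseudocounts 0.01 and 0.5, with 8 libraries above 0, without 1 h and without 3 h; 3 without 6 h, 2 without 24 h, 13 without the time factor and 17 at 5 CPM. It was 204 without 12 h, 91 without 18 h and 268 over 0 to 12 h; the cause was not tested. The level count was 1 member (Eif2s3y, which the main filter leaves out) and 3 genes with 8 libraries above 0, and 2 genes on the linear scale.

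With a constant floor fitted to group medians, half-lives were: Eif2 3.45 h in YBX1-/- and 3.57 h in WT, Eif4 2.78 h in YBX1-/- and 2.92 h in WT, the other Eif genes 2.62 h in YBX1-/- and 2.55 h in WT, Eef 3.5 h in YBX1-/- and Eif3 4.67 h in WT. Eif3 was the slowest group in both genotypes in that fit, whereas by straight line Eef was slowest in WT (4.04 h, Eif3 3.89 h).

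Signs reversed for these differences, none of which passed the main test. In slope they were Eef1g without 24 h (0.026), over 0 to 12 h (0.15, where it passed) and 0 to 6 h (0.17) and on the linear scale (0.029), Eif2a over 0 to 6 h (0.081), Eif4e2 without 24 h (-0.032), over 0 to 6 h (-0.073) and on the linear scale (-0.22), Eef1d over 0 to 12 h (-0.089), Eef2 over 0 to 12 h (0.031) and 0 to 6 h (0.073), and Eif6 by weighted mean (-0.10). In level, they were Eif2s3x over 0 to 6 h (-0.13) and on the linear scale (-3.90), Eif2b5 likewise (0.23 and 2.87), Eif6 by weighted mean (-0.61), over 0 to 6 h (-0.13), on the linear scale (-2.31) and uncentred (-0.19), and Eif1ad without 6 h (0.0062). In pairs, Eif4a2 minus Eif4a1 reversed at pseudocount 0.5 (-0.0060) and over 0 to 6 h (-0.20), Eif4e2 minus Eif4e at pseudocount 0.5 (0.025), and Eif4g2 minus Eif4g1 over 0 to 6 h (0.55, where it passed). With the other bases and intervals, retained label at 6 h ran over 36.8 to 50.5% in YBX1-/- and 45.4 to 52.3% in WT for Eif3, 24.3 to 45.0% in YBX1-/- and 36.9 to 39.0% in WT for Eef, and 12.9 to 22.8% in YBX1-/- and 18.7 to 22.3% in WT for the other Eif genes. No paired analysis by replicate number was possible, with 1 library per genotype and time; the main models pair the genotypes by time point, and the fit without the time factor is the unpaired alternative. Unknown depth limits all rates, most of all thinly covered genes such as Eif3e and Eif5a2.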
